A study of Mus musculus with 9 samples.

Results

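The genes described here process steroid hormones inside the cell or answer to them, and they were measured in the lateral nasal gland, a secretory gland of the mouse nose. The rule named 9 genes and took every probe set whose only gene symbol in the platform annotation was one of them. Of these genes, 6 had a probe set: the glucocorticoid receptor Nr3c1, its co-chaperone Fkbp5, and the dehydrogenases Hsd11b1, Hsd17b4, Hsd17b10 and Hsd17b12. They had 12 of the 22626 probe sets in the table, and each probe set was treated separately. The other 3 genes, Srd5a1, Srd5a2 and Sts, and the androgen receptor itself were not analysed here.

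Glands came from Cyp2g1-null males on a mixed 129/Sv x C57BL/6 background (3 arrays), from wild-type C57BL/6 males, called B6 (4 arrays), and from wild-type 129/Sv males (2 arrays). Cyp2g1 is a cytochrome P450 made in nasal tissue. All mice were 2 to 3 months old, and each array held RNA pooled from 10 mice. The labels do not say whether the pools of a group were collected separately, so p-values measure the spread between these arrays. All null arrays carried both the deletion and the mixed background, so these cannot be told apart in any comparison of the null line. In pooled tissue, fewer cells of a type and less RNA per cell cannot be told apart either.

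Steroid receptors are held ready for hormone by chaperones, and after binding it they regulate genes in the nucleus. How much active hormone reaches them depends on enzymes of the target tissue: 5-alpha reductases turn testosterone into dihydrotestosterone, steroid sulfatase frees sulfated precursors, Hsd11b1 regenerates active glucocorticoid, and enzymes of the 17-beta-hydroxysteroid dehydrogenase family interconvert active and less active sex steroids. Several members of that family work mainly on fatty acids or amino acid breakdown. The nasal mucosa is rich in cytochrome P450 enzymes, some of which act on sex steroids.

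The receptor, its co-chaperone and the 3 Hsd17b genes were measured above the middle of the array, and Hsd11b1 was not. An array's median signal is used here as that middle, and it lay between 518.55 and 550.05 on the 9 arrays. Of the 12 probe sets, 9 were above the median on all 9 arrays: both of Hsd17b4, both of Hsd17b10, both of Hsd17b12, 2 of the 3 of Nr3c1, and 1 of the 2 of Fkbp5. The second Fkbp5 probe set was above it on 8 arrays, the dimmest Nr3c1 probe set on 1, and the only Hsd11b1 probe set on 0. The 2 probe sets that exceeded the median on fewer than 2 arrays were left out of the tests, so 10 probe sets of 5 genes were tested. Signals of different probe sets depend on the probes and were not compared with each other.

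**Figure D1:**
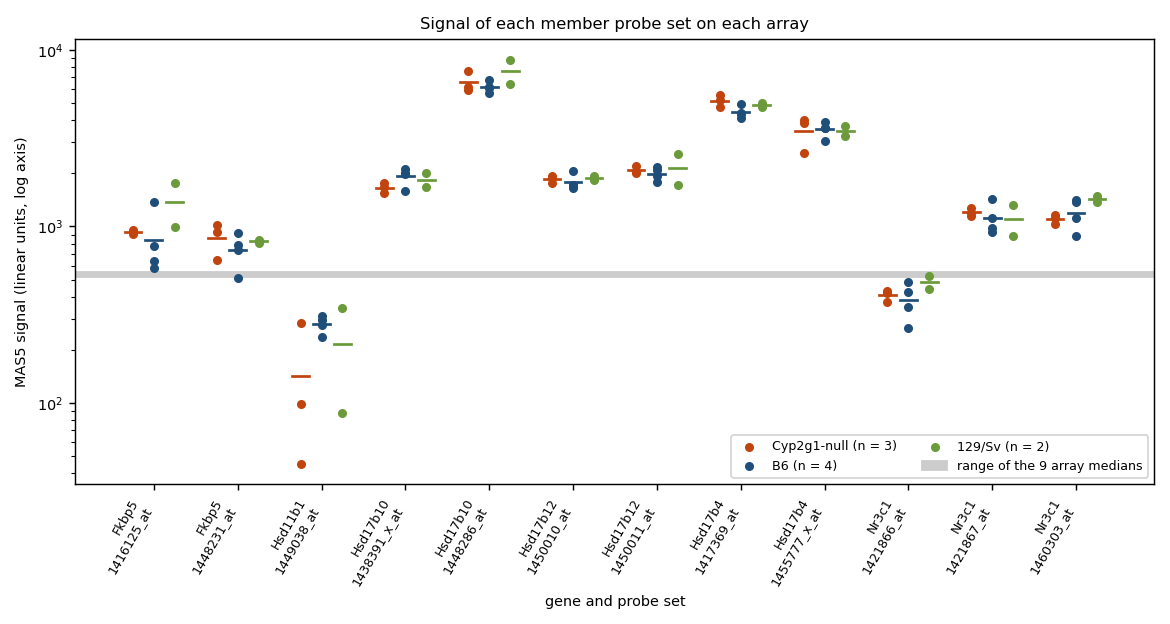
Signal of the 12 probe sets on each array, in linear MAS5 units on a log axis, with Cyp2g1-null, B6 and 129/Sv arrays side by side as points, group means as short lines and the range of the 9 array medians as a grey band. Hsd11b1 lies under the band on all 9 arrays, and Nr3c1 1421866_at lies under it on every array except 129/Sv array 2.

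Promoter sequences are shown for the 4 genes that the reference table held and that could be measured, to set the gene under the array median beside 3 genes above it. They run from 250 bases before the transcription start to 50 bases after it, in the direction of transcription, and were taken from RefSeq (build GRCm38.p6). Capitals mark CG dinucleotides.
Hsd11b1 chr1:193242311-193242610, minus strand: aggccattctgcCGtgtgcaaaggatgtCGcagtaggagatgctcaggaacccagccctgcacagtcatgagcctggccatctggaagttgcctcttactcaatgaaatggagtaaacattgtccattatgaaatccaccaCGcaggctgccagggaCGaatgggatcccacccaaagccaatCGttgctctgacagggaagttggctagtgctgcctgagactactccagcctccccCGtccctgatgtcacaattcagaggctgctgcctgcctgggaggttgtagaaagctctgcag
Fkbp5 chr17:28486100-28486399, minus strand: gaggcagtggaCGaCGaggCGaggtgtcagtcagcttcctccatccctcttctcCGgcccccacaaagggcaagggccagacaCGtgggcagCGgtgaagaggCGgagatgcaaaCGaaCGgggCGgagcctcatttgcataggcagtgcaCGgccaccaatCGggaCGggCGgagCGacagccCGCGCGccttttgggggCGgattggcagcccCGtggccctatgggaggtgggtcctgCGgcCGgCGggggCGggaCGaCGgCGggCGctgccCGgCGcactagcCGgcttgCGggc
Hsd17b10 chrX:152001646-152001945, plus strand: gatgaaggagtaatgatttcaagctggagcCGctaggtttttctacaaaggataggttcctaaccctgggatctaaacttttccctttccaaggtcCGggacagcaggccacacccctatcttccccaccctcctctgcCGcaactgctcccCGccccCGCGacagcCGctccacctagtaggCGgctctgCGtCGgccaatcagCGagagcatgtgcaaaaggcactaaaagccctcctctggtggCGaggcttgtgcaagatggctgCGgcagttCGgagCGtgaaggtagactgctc
Hsd17b12 chr2:94157860-94158159, minus strand: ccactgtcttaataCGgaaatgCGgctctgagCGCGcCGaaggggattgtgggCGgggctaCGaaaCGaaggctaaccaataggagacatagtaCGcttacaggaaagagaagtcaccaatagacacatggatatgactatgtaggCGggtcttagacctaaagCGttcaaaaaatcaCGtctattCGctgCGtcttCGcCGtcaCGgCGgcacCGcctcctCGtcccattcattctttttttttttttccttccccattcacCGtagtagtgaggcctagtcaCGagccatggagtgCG
Hsd11b1, under the median on all arrays, had 6 CG dinucleotides in this window, and 56.4% of 32851 promoters of this length had at least as many. Hsd17b10 had 15, Hsd17b12 had 23 and Fkbp5 had 32, against a median of 7 over all promoters. At least as many as in Fkbp5 were found in 9.52% of promoters, as in Hsd17b12 in 21.5% and as in Hsd17b10 in 34.6%. The core letters of the glucocorticoid response element, ACANNNTGT, read the same on both strands. They were in 0 of the 4 windows and in 6.85% of all promoters, which says only that these letters are not in these windows.

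Nr3c1, the glucocorticoid receptor, did not pass the test in any comparison, and its probe sets gave different orders of the groups. Probe set 1460303_at read 1035.2, 1109.9 and 1168.2 in null arrays, 1412.3, 1119.6, 1381.2 and 879.1 in B6 arrays, and 1479.7 and 1374.6 in 129/Sv arrays. All 3 null arrays lay below both 129/Sv arrays and inside the B6 range. The difference between null and 129/Sv was -0.37 on the log2(signal + 16) scale (SE 0.201, 95% interval -0.80 to 0.07), with an adjusted p of 0.527 (limma, Benjamini-Hochberg over every tested probe set). Probe set 1421867_at, with the other sign, read 1193.2, 1148.3 and 1276.7 in null arrays, 1426.3, 983.2, 1116.3 and 933.3 in B6 arrays, and 877.2 and 1318.4 in 129/Sv arrays, so that all groups overlapped. Its difference between null and 129/Sv was 0.16 (95% interval -0.30 to 0.62). The dim probe set 1421866_at read 374.2, 428.2 and 422.0 in null arrays, 427.9, 267.1, 348.5 and 484.3 in B6 arrays, and 440.7 and 524.8 in 129/Sv arrays, and it exceeded the array median only on 129/Sv array 2, at 1.01 times that median.

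Fkbp5 encodes FKBP51, a co-chaperone that lowers the glucocorticoid receptor's affinity for hormone and is itself induced by glucocorticoids and androgens. Its probe set 1416125_at varied most among the tested members, 3.01-fold between its lowest and highest array. It read 903.2, 926.6 and 957.7 in null arrays, 633.9, 583.9, 774.0 and 1375.3 in B6 arrays, and 989.0 and 1758.4 in 129/Sv arrays. The spread lay within the strains: null arrays averaged 929.2 ± 27.3 (SD, n = 3), B6 arrays 841.8 ± 365 (n = 4) and 129/Sv arrays 1374 ± 544 (n = 2). All 3 null arrays were below both 129/Sv arrays, and the B6 and 129/Sv ranges overlapped through B6 array 4.

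The Fkbp5 difference between B6 and 129/Sv was -0.72 (SE 0.304, 95% interval -1.38 to -0.07), with an unadjusted p of 0.0324 and an adjusted p of 0.228 from limma. It therefore did not pass the threshold of 0.05. Single arrays decided its size: it was -0.98 without B6 array 4 (adjusted p = 0.0334), -0.31 without 129/Sv array 2 (adjusted p = 0.805) and -1.13 without 129/Sv array 1 (adjusted p = 0.152). Between null and 129/Sv it was -0.50 (SE 0.320, 95% interval -1.19 to 0.19, adjusted p = 0.613), and between null and B6 it was 0.22 (SE 0.268, 95% interval -0.35 to 0.80, adjusted p = 0.754).

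The second Fkbp5 probe set, 1448231_at, read 925.1, 641.6 and 1014.4 in null arrays, 509.9, 734.2, 787.5 and 917.1 in B6 arrays, and 808.8 and 840.5 in 129/Sv arrays. The 129/Sv arrays lay inside the null range and inside the B6 range. Its difference between B6 and 129/Sv was -0.19 (95% interval -0.73 to 0.35, adjusted p = 0.776 in limma), and between null and B6 it was 0.22 (SE 0.223, adjusted p = 0.696). The probe set fell under the array median only on B6 array 1, at 0.936 times that median.

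Hsd11b1, the enzyme that regenerates active glucocorticoid from its inactive keto form, read 284.5, 98.9 and 45.2 in null arrays, 238.0, 295.7, 275.2 and 311.9 in B6 arrays, and 88.1 and 344.5 in 129/Sv arrays. These signals were 0.0828 to 0.664 times the array median. Null arrays averaged 142.9 ± 126 (SD, n = 3), B6 arrays 280.2 ± 31.9 (n = 4) and 129/Sv arrays 216.3 ± 181 (n = 2). The 4 B6 arrays lay close together, whereas the null and 129/Sv arrays spread widely, and all 3 ranges overlapped. The highest and lowest arrays differed 7.62-fold, and at this signal no test was made.

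Hsd17b4, the peroxisomal bifunctional enzyme, oxidises estradiol and carries out a step of peroxisomal fatty acid breakdown. Its probe set 1417369_at read 5172.0, 4766.5 and 5524.0 in null arrays, 4918.7, 4093.1, 4329.8 and 4375.7 in B6 arrays, and 5023.8 and 4752.8 in 129/Sv arrays. Null arrays averaged 5154 ± 379 (SD, n = 3), B6 arrays 4429 ± 349 (n = 4) and 129/Sv arrays 4888 ± 192 (n = 2). B6 array 1 was inside the null range and the other 3 B6 arrays were below it. The difference between null and B6 was 0.22 (SE 0.0987, 95% interval 0.01 to 0.43), with an unadjusted p of 0.0442 and an adjusted p of 0.331 from limma. The second probe set, 1455777_x_at, had a difference of -0.04 there (95% interval -0.36 to 0.28). It read 3870.0, 3997.6 and 2592.3 in null arrays, 3620.1, 3616.6, 3904.7 and 3031.2 in B6 arrays, and 3683.1 and 3254.1 in 129/Sv arrays. Null array 3 was the lowest of the 9 on this probe set and the highest of the 9 on the other. A probe set whose name ends in x_at can match several transcripts.

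Hsd17b10, a mitochondrial enzyme of isoleucine and steroid breakdown and a subunit of mitochondrial RNase P, was above the array median on all 9 arrays by both probe sets. Probe set 1448286_at, at 10.7 to 16.6 times the array median, read 7592.5, 6154.7 and 5963.5 in null arrays, 6751.0, 6061.0, 6131.9 and 5719.4 in B6 arrays, and 8808.7 and 6449.5 in 129/Sv arrays. The highest array of the 9 was 129/Sv array 1, and the other 129/Sv array lay inside the null and B6 ranges. The difference between B6 and 129/Sv was -0.29 (SE 0.138, 95% interval -0.59 to 0.01, adjusted p = 0.298 in limma). Probe set 1438391_x_at read 1544.7, 1755.3 and 1676.7 in null arrays, 2114.5, 2013.1, 1591.1 and 1993.6 in B6 arrays, and 1666.2 and 2020.6 in 129/Sv arrays. There the null arrays were below 3 of the 4 B6 arrays, and the difference between null and B6 was -0.21 (95% interval -0.49 to 0.08, adjusted p = 0.506), against 0.09 (95% interval -0.18 to 0.35) on the brighter probe set.

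Hsd17b12, which reduces estrone to estradiol and takes part in the elongation of long-chain fatty acids in the endoplasmic reticulum, differed little between groups. Probe set 1450010_at read 1885.3, 1755.9 and 1941.6 in null arrays, 1723.2, 2066.6, 1647.3 and 1711.0 in B6 arrays, and 1834.1 and 1936.3 in 129/Sv arrays. Probe set 1450011_at read 2211.3, 2022.0 and 2019.4 in null arrays, 1775.0, 2079.3, 1918.8 and 2166.9 in B6 arrays, and 1718.1 and 2583.1 in 129/Sv arrays. On both probe sets every pair of groups overlapped. The differences between null and B6 were 0.06 (95% interval -0.19 to 0.32) and 0.07 (95% interval -0.23 to 0.38), and those between null and 129/Sv were -0.02 on both.

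No member probe set passed the threshold in any comparison. Between null and B6, limma called 0 of the 10 tested member probe sets, where 2.18% of all 12575 tested probe sets were called. At an unadjusted p under 0.05 it was 1 member, Hsd17b4 1417369_at, against 14.4% of all. Between null and 129/Sv, 0 of 10 were called against 2.04% of all, and 0 against 12% had an unadjusted p under 0.05. Between null and the mean of the strains, 0 of 10 were called against 1.22%, and 0 against 11.9% at the unadjusted level. Between B6 and 129/Sv, 0 of 10 were called against 5.19%, and 1, Fkbp5 1416125_at, against 17.4% at the unadjusted level. A count of 0 among 10 is near each of these background shares.

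Group ranges of the tested members mostly overlapped. Null and 129/Sv arrays did not overlap for 2 of the 10, Fkbp5 1416125_at and Nr3c1 1460303_at, both lower in null arrays, against 31.5% of all probe sets, and 15.2% that were apart and lower in null arrays. None of the 10 was separate between null and B6, against 13.5% of all, between null and the arrays of both strains, against 4.87%, or between B6 and 129/Sv, against 25.1%. The median absolute log2 difference of the members was 0.11 between null and B6, against 0.15 over all probe sets, 0.11 against 0.16 between null and 129/Sv, 0.13 against 0.13 between null and the mean of the strains, and 0.12 against 0.18 between B6 and 129/Sv. The median signed difference of the members was 0.08, -0.02, -0.0041 and -0.12 in these comparisons, against 0.02, 0.0033, 0.01 and -0.01 over all probe sets. The comparisons of the null line use the same null arrays. The intervals do not show equality: the widest, for Fkbp5 1416125_at between null and 129/Sv, reached 0.69 to either side of its estimate.

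**Figure D2:**
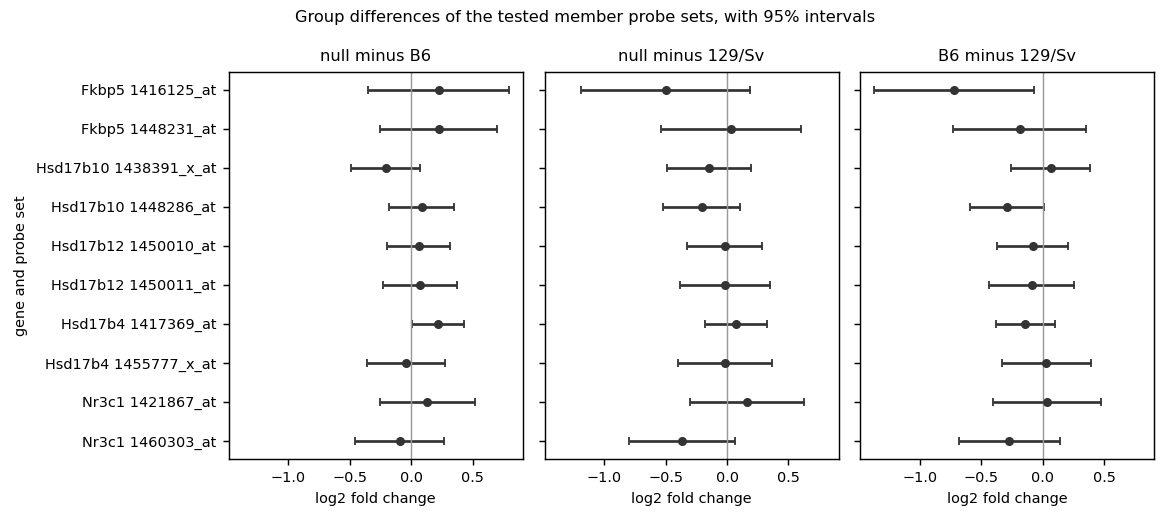
Log2 fold changes with 95% intervals from limma for the 10 tested member probe sets, in panels for null minus B6, null minus 129/Sv and B6 minus 129/Sv. Only Hsd17b4 1417369_at in the first panel and Fkbp5 1416125_at in the last have intervals that leave out 0, and neither passed after adjustment.

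No pair of probe sets of the same gene had a correlation over the 9 arrays that passed its test. The 2 Fkbp5 probe sets had Pearson r = 0.523 (exact permutation p = 0.146) and Spearman rho = 0.55 (exact permutation p = 0.133), and r = 0.675 without B6 array 2 and 129/Sv array 2. The coefficient was 0.393 for Hsd17b12, -0.33 for Hsd17b4 and -0.372 for Hsd17b10. For Hsd17b4 it was 0.352 without null array 3 and B6 array 2, so its sign rested on those arrays. The 3 pairs of Nr3c1 probe sets gave 0.0733 to 0.267. The pairs with 1421866_at, at 0.224 and 0.0733, turned to -0.348 and -0.345 without B6 array 2 and 129/Sv array 2, and the pair of the tested probe sets gave 0.626 without B6 array 1 and 129/Sv array 1. Over the 7 pairs, Benjamini-Hochberg adjusted exact p-values for r lay between 0.674 and 0.851, and those for rho between 0.931 and 0.948. The pairs share the arrays and their scaling. The 2 member differences with an unadjusted p under 0.05 were each seen on 1 probe set, while the other probe set of the gene gave -0.04 for Hsd17b4 between null and B6 and -0.19 for Fkbp5 between B6 and 129/Sv.

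**Figure D3:**
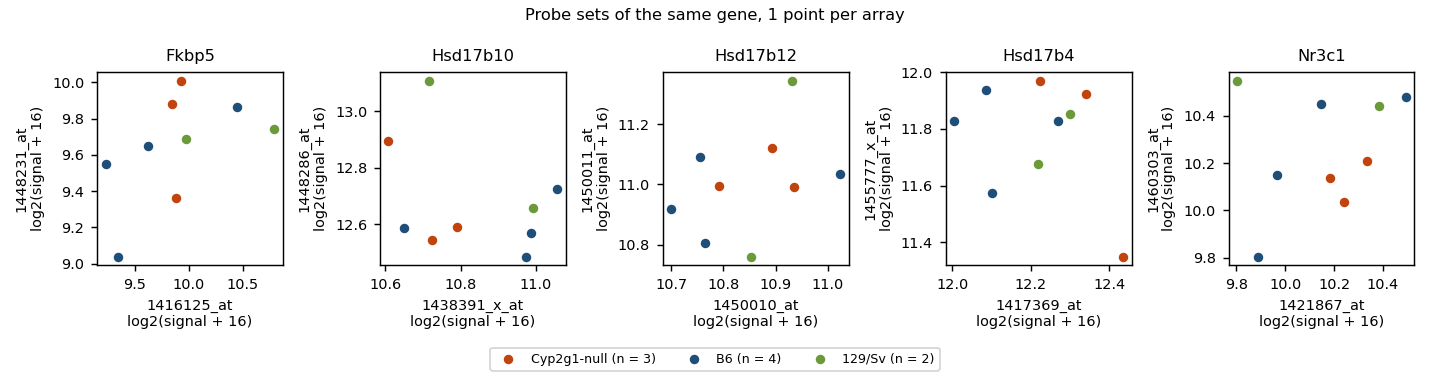
Pairs of probe sets of the same gene, plotted as log2(signal + 16) on each of the 9 arrays, with colours for null, B6 and 129/Sv arrays. The coefficient is -0.33 for Hsd17b4, where null array 3 lies at the lower right, -0.372 for Hsd17b10 and 0.523 for Fkbp5.

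For each member above the median on all 9 arrays, the genes with the most similar pattern to its brightest such probe set were taken from 11603 probe sets by Pearson r over the 9 arrays, as a description. For Fkbp5 they were Triap1 (r = 0.953) and Elovl5 (r = 0.918). Triap1 read 1159.3, 1169.4 and 1260.5 in null arrays, 942.5, 1000.3, 1211.7 and 1405.7 in B6 arrays, and 1248.4 and 1548.2 in 129/Sv arrays, so that B6 array 4 and 129/Sv array 2 were the highest, as for Fkbp5. The nearest to Hsd17b10 were Rarres2 (0.955) and Sox9 (0.932), to Hsd17b12 Elavl1 (0.954) and Cradd (0.932), to Hsd17b4 Rrm2 (0.959) and Nectin2 (0.95), and to Nr3c1 Mcl1 (0.93) and Prss23 (0.892). These are the highest coefficients of a search, so their size carries no test.

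Among other genes of steroid metabolism, those that differed between the strains were lower in B6. Of 43 listed genes of steroid synthesis, activation and inactivation, 35 were on the array and 12 were tested, with 18 probe sets. Between B6 and 129/Sv, 5 of the 18 (27.8%) were lower in B6 and 0 were higher, where 2.27% of all probe sets were lower and 5.19% were called. The median difference over the 12 genes, each by its brightest tested probe set, was -0.42. The median over all probe sets, taken per probe set, was -0.01. Medians of this list and of the lists below were all taken per gene in this way. Between null and B6, 1 probe set was higher and 0 were lower (5.56%, against 2.18% of all probe sets), with a median of 0.16 against 0.02. In limma 0 passed between null and 129/Sv or between null and the mean of the strains, where 4 and 3 had an unadjusted p under 0.05. Papss1, which makes the sulfate donor for sulfotransferases, read 5083.2, 5351.8 and 5252.6 in null arrays, 3311.8, 3516.1, 3394.9 and 3354.9 in B6 arrays, and 4964.9 and 5691.3 in 129/Sv arrays. B6 stood below both other groups without overlap. The difference was 0.62 between null and B6 (SE 0.0918, adjusted p = 0.00215 in limma), -0.65 between B6 and 129/Sv (adjusted p = 0.0019) and -0.02 between null and 129/Sv.

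The other genes of this list lower in B6 than in 129/Sv were Hsd17b11, Tspo and Papss2. Hsd17b11, a dehydrogenase of lipid droplets, averaged 4411 ± 625 in B6 arrays and 7479 ± 732 in 129/Sv arrays (SD, n = 4 and n = 2), a difference of -0.77 on 1434642_at (adjusted p = 0.00342 in limma), with -0.66 on its other probe set, which was not called. Tspo, a protein of the outer mitochondrial membrane, was lower by 2 of its 3 probe sets, with -0.62 on 1416695_at (adjusted p = 0.0267). Papss2, the second sulfate donor synthase, differed by -0.75 on 1 of its 3 probe sets, 1421987_at (adjusted p = 0.0435). On these probe sets null arrays averaged between the strains. Their mean was 5589 for Hsd17b11, 3237 for Tspo (B6 2597, 129/Sv 4018) and 918 for Papss2 (B6 819, 129/Sv 1366). On Papss2 1421989_s_at, which was not called, null arrays averaged lowest, at 1264 against 1852 in B6 and 2499 in 129/Sv. Each of these calls between the strains was lost when 1 array was left out: that of Papss1 without 129/Sv array 2 (adjusted p = 0.051), that of Hsd17b11 without 129/Sv array 1 (0.0707), that of Tspo without any of 4 arrays (0.0562 to 0.324) and that of Papss2 without any of 8 arrays (0.0507 to 0.244). The call of Papss1 between null and B6 was kept in all 9 such fits.

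Among other steroid hormone receptors, 2 genes were tested, the membrane progesterone receptor components Pgrmc1 and Pgrmc2, and limma called 0 of their 3 probe sets in any comparison, with 1 at an unadjusted p under 0.05, between B6 and 129/Sv. Pgrmc1 differed by 0.12 between null and B6 (95% interval -0.07 to 0.31) and by -0.25 between B6 and 129/Sv (95% interval -0.47 to -0.03, adjusted p = 0.212). Pgrmc2 probe set 1428714_at differed by -0.14 between B6 and 129/Sv (95% interval -0.46 to 0.18).

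Among receptor chaperones, 13 genes with 27 probe sets were tested. Between null and B6, 0 were higher and 1 was lower (3.7%, against 2.18% of all probe sets called). Between B6 and 129/Sv, 3 (11.1%, against 5.19% of all) were higher and 0 lower, with a median of 0.07 against -0.01 over all probe sets. In limma 0 passed between null and 129/Sv or between null and the mean of the strains, with 4 and 5 at an unadjusted p under 0.05. Ppp5c, a phosphatase that binds the same chaperone complex as Fkbp5, read 787.6, 774.9 and 601.5 in null arrays, 1584.7, 1925.4, 1421.0 and 2034.8 in B6 arrays, and 651.7 and 740.7 in 129/Sv arrays on probe set 1451242_a_at. The difference was -1.25 between null and B6 (adjusted p = 0.00117 in limma) and 1.29 between B6 and 129/Sv (adjusted p = 0.000938), with B6 apart from both other groups. The other 2 Ppp5c probe sets differed by 0.34 and 0.17 between null and B6, the opposite sign. Hsp90aa1 and Hspa8, chaperones of the receptor complex, were higher in B6 than in 129/Sv by 0.50 and 0.46 on 1 probe set each (adjusted p = 0.0398 and 0.0473). Without single arrays these calls reached adjusted p = 0.213 and 0.328, both without 129/Sv array 1.

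Among receptor coregulators, 9 genes with 16 probe sets were tested, and the probe set that passed was of the Mediator subunit Med1 (6.25%, against 2.18% of all probe sets between null and B6 and 5.19% between B6 and 129/Sv). In limma 0 passed between null and 129/Sv or between null and the mean of the strains, with 0 and 1 at an unadjusted p under 0.05. Probe set 1421907_at read 3414.6, 2807.5 and 3412.8 in null arrays, 1938.0, 1888.8, 2179.6 and 1733.7 in B6 arrays, and 2935.8 and 3341.8 in 129/Sv arrays. It was higher in null than in B6 by 0.73 (adjusted p = 0.00438 in limma) and lower in B6 than in 129/Sv (difference -0.70, adjusted p = 0.00749, and 0.121 without 129/Sv array 2). The call rested on 1 of 3 tested Med1 probe sets: the other 2, 1421906_at and 1448708_at, differed by 0.18 and 0.24 between null and B6 and by -0.73 and -0.26 between B6 and 129/Sv, without a call.

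Among genes that glucocorticoids induce, Dusp1, Cdkn1a and Glul were called in at least 1 comparison. Of 16 tested genes with 30 probe sets, 1 probe set was higher and 0 lower between null and B6, 1 was higher and 2 were lower between null and 129/Sv, 1 was higher and 0 lower between null and the mean of the strains, and 0 were higher and 2 lower between B6 and 129/Sv. These were 3.33% of the list against 2.18% of all probe sets between null and B6, 10% against 2.04% between null and 129/Sv, 3.33% against 1.22% between null and the mean of the strains, and 6.67% against 5.19% between B6 and 129/Sv. The median difference was 0.16 between null and B6, against 0.02 over all probe sets, and -0.05 between B6 and 129/Sv, against -0.01. Glul, glutamine synthetase, read 1880.4, 1728.7 and 2004.4 in null arrays, 1768.5, 1481.6, 1818.3 and 2292.2 in B6 arrays, and 2991.0 and 3945.8 in 129/Sv arrays on 1426235_a_at. It was lower in null than in 129/Sv by a difference of -0.87 (adjusted p = 0.0209 in limma) and lower in B6 than in 129/Sv by -0.91 (adjusted p = 0.00544). Without 129/Sv array 2 these adjusted p-values were 0.316 and 0.123. Cdkn1a, an inhibitor of the cell cycle, was called by 1 of its 2 tested probe sets. That probe set, 1421679_a_at, read 915.9, 855.9 and 873.5 in null arrays, 603.0, 199.6, 568.1 and 576.3 in B6 arrays, and 88.9 and 212.1 in 129/Sv arrays, with all null arrays above all others. It was higher in null than in 129/Sv by 2.54 (adjusted p = 0.0113, and 0.114 without 129/Sv array 1) and than the mean of the strains by 1.74 (adjusted p = 0.0418, and 0.192 without null array 1). The other probe set, 1424638_at, was not called, with differences of 0.73 between null and 129/Sv and 0.32 between null and B6. Dusp1, a phosphatase that dampens MAP kinase signals, was higher in null than in B6 by 1.64 (adjusted p = 0.0476, and 0.226 without null array 2). The summed signal of 8 immediate early genes, Dusp1 among them, was 24030 to 57920 in null arrays, 14350 to 22530 in B6 arrays and 16010 to 24100 in 129/Sv arrays. Of their 9 tested probe sets, limma called 2 (22.2%, against 2.18% of all) higher in null than in B6. It called 3 (33.3%, against 2.04%) higher in null than in 129/Sv and 2 (22.2%, against 1.22%) higher than the mean of the strains. Between B6 and 129/Sv it called 0. The part of the immediate early genes in these results was not tested.

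Of genes known to respond to androgens, 11 with 19 probe sets were tested. Between B6 and 129/Sv, 1 was higher and 3 were lower (21.1% in all, against 5.19% of all probe sets), between null and B6, 2 were higher and 0 lower (10.5% against 2.18%), and between null and 129/Sv, 0 were higher and 1 lower (5.26% against 2.04%). Between null and the mean of the strains limma called 0, with 3 at an unadjusted p under 0.05. The median difference between B6 and 129/Sv was 0.11, against -0.01 over all probe sets. Azgp1, a secreted lipid-mobilising glycoprotein, read 3122.4, 2447.9 and 2041.3 in null arrays, 5265.0, 4563.6, 3377.9 and 3093.3 in B6 arrays, and 1760.3 and 2096.3 in 129/Sv arrays. It was higher in B6 than in 129/Sv by 1.05 (adjusted p = 0.0088 in limma, and 0.122 without 129/Sv array 1). Klk1, a secreted kallikrein, was lower in B6 than in 129/Sv by 2 of 3 probe sets, with -0.73 on 1448107_x_at (adjusted p = 0.0205, and 0.152 without 129/Sv array 1), and higher in null than in B6 by 0.65 on it (adjusted p = 0.0369, and 0.18 without null array 3). Its other probe set had a difference of 0.30 between B6 and 129/Sv. Kallikrein genes are close copies, so these signals may be shared between them.

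Of the genes that work beside the Hsd17b members on fatty acids in peroxisomes, mitochondria and the endoplasmic reticulum, 15 with 29 probe sets were tested. Between null and B6 limma called 0, with 3 at an unadjusted p under 0.05, and between null and the mean of the strains 0, with 4. Between null and 129/Sv, and between B6 and 129/Sv, it called 1 higher and 1 lower (6.9%, against 2.04% and 5.19% of all probe sets). The median difference between B6 and 129/Sv was -0.12, against -0.01 over all probe sets. Amacr, a racemase of the peroxisomal pathway in which Hsd17b4 acts, read 929.5, 681.0 and 792.2 in null arrays, 1006.4, 894.0, 718.0 and 683.3 in B6 arrays, and 293.1 and 214.4 in 129/Sv arrays. It was higher in null than in 129/Sv by 1.60 (adjusted p = 0.00455 in limma, and 0.0673 without 129/Sv array 2) and in B6 than in 129/Sv by 1.64 (adjusted p = 0.00129). Elovl5, an elongase of the cycle in which Hsd17b12 acts and also on the androgen list, read 3105.9, 3446.4 and 3649.2 in null arrays, 3259.9, 3051.1, 2959.9 and 3514.2 in B6 arrays, and 5343.6 and 6341.3 in 129/Sv arrays. It was lower in null than in 129/Sv by a difference of -0.78 (adjusted p = 0.00461, and 0.11 without 129/Sv array 2) and in B6 than in 129/Sv by -0.86 (adjusted p = 0.000647). Over all these lists 28 calls of single probe sets were made, and 6 of them were kept in every fit that left out 1 array.

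**Figure D4:**
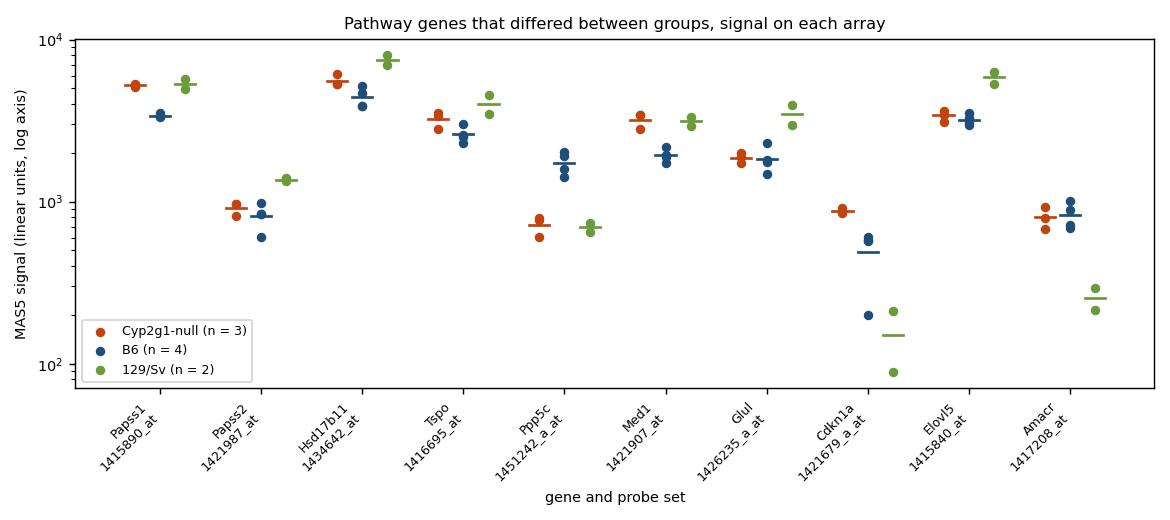
Signal on each array, in linear MAS5 units on a log axis, of 10 pathway genes with a call in at least 1 comparison, shown as points for null, B6 and 129/Sv arrays with group means as lines. B6 stands apart from both other groups for Papss1, Ppp5c and Med1, and 129/Sv stands apart for Hsd17b11, Papss2, Elovl5, Glul and Amacr.

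Across the series, array correlations lay between 0.931 and 0.972, and no 2 arrays were identical. The targeted gene Cyp2g1 read 55.7, 140.6 and 201.1 in null arrays, 5916.8, 748.2, 2006.9 and 2799.4 in B6 arrays, and 207.5 and 981.2 in 129/Sv arrays, so that null arrays were lowest but close to 129/Sv array 1. Markers of gland secretory cells summed to 267700 to 314900 in null arrays, 225400 to 266300 in B6 arrays and 247000 to 277600 in 129/Sv arrays. The sum held 8 genes, of which 2 were under the median on all arrays. Its largest part was Obp1a, which averaged 128750, 143870 and 129520 in these groups. Of 6 tested probe sets, 2 (33.3%, against 2.18% of all) were higher in null than in B6. They were of Car6 and Dmbt1, with differences of 4.70 and 0.62 (adjusted p = 0.0158 and 0.0301 in limma). Car6 read 387.5 and 593.7 on B6 arrays 1 and 2. Obp1a, Bpifa1, Muc5b and Aqp5 had negative differences there without a call. Markers of ciliated and respiratory epithelium (6 genes) summed to 17910 to 18860 in null arrays, 11020 to 13880 in B6 arrays and 12520 to 14570 in 129/Sv arrays. Of their 6 tested probe sets, limma called 4 (66.7%, against 2.18% of all) higher in null than in B6. They were of Dnah5, Tppp3, Lrrc23 and Rsph1. It called 3 (50%, against 1.22% of all) higher in null than in the mean of the strains, and 0 between null and 129/Sv or between B6 and 129/Sv. Leukocyte markers (9 genes, 3 of them under the median on all arrays) summed to 36020 to 42270 in null arrays, 28550 to 32250 in B6 arrays and 34360 to 41180 in 129/Sv arrays. Most of that sum was Lyz2, which averaged 34115 in null arrays, 24201 in B6 arrays and 32398 in 129/Sv arrays, while Csf1r, S100a8 and S100a9 differed by -0.27, -0.41 and -0.84 between null and B6 without a call. Of 8 tested leukocyte probe sets, limma called 1 (12.5%), of Lyz2. It was higher in null than in B6 (against 2.18% of all called) and lower in B6 than in 129/Sv (against 5.19%). Endothelial and stromal markers (8 genes, 1 of them under the median on all arrays) summed to 57690 to 70340 in null arrays, 65900 to 84640 in B6 arrays and 58840 to 62540 in 129/Sv arrays. Of their 10 tested probe sets, 2 (20%, against 2.18% of all) were lower in null than in B6. They were 1455494_at of the collagen Col1a1 and 1423110_at of Col1a2, with differences of -0.65 and -0.62 (adjusted p = 0.0196 and 0.0408 in limma). The other probe sets of these genes, 1423669_at and 1450857_a_at, were not called in any comparison. They differed by -0.49 and -0.41 between null and B6 and by 0.54 and 0.49 between B6 and 129/Sv. The called probe sets, 1455494_at and 1423110_at, were higher in B6 than in 129/Sv by 0.58 and 0.61 (adjusted p = 0.0393 and 0.046 in limma). On them B6 stood apart as for Papss1, Ppp5c and Med1. In fits that left out 1 array, each of these 4 calls was lost in 4 to 7 of 9, with adjusted p up to 0.104 and 0.189 between null and B6 and up to 0.404 and 0.371 between B6 and 129/Sv. Olfactory neuron markers (5 genes) summed to 1709 to 5387 in null arrays, 2278 to 8496 in B6 arrays and 1207 to 2198 in 129/Sv arrays. Of their 5 tested probe sets, limma called 1 (20%, against 5.19% of all), of Adcy3, higher in B6 than in 129/Sv. It called 0 in the comparisons of the null line. The part of these markers in the differences above was not tested.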

How the data were processed

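RNA of 9 gland pools was measured on 1-colour Affymetrix arrays. The values the authors deposited are linear signal intensities from MAS5, according to the submitters' processing notes, which name no version. The mean signal after trimming 2% at each end was 1500.6 on every array, so all arrays share 1 scale. The number of arrays limits the precision.

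Of 22626 probe sets left after 64 control probe sets were removed, 20380 had 1 gene symbol, 691 had several and 1555 had none. Signals were converted to log2(signal + 16), which understates changes of dim genes. Probe sets above the array median on at least 2 arrays (12575) entered limma 3.58.1 (R 4.3.3; lmFit and eBayes with trend, all 9 arrays, no covariates). Tests were two-sided, with Benjamini-Hochberg adjustment over all of them, a threshold of 0.05 and 95% intervals. The procedure was tested on simulated data. Exact permutation tests went through every pairing of the 9 arrays with numpy 2.4.6, and scipy 1.17.1 gave the ranks.

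Members and gene lists were chosen with earlier results of these data known. All members were named. From each list up to 4 called genes by adjusted p, or the 2 brightest where fewer than 2 passed, were to be named. Med1 falls outside this and was named after its values were seen. Alternatives were other pseudocounts (1 and 64), filters, normalizations, eBayes without trend, a replicate block, fits of the compared groups and arrays left out. Deviations of same-numbered arrays of different groups correlated at -0.075 to 0.0963.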

Additional observations from a re-analysis of the deposited data

Results flagged for a closer look

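In B6, 1 array stood far from the other 3 for 2 of the listed genes. For Cdkn1a, B6 array 2 read 199.6 against 568.1 to 603.0 on the other B6 arrays, and the gap took 0.913 of the group's range. For Dusp1, B6 array 3 read 9647.3 against 3031.9 to 3840.5 on the others, and the gap took 0.878 of the range. Both gaps passed Dixon's critical value for 4 arrays. The B6 values of 27 probe sets were examined in this way, and chance alone passes about 5% of such groups. No member probe set was past it.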

How the results depend on the processing

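The counts of member probe sets called stayed at 0 in every comparison and setting, except between B6 and 129/Sv, where Fkbp5 1416125_at was called without B6 array 4 (range over arrays left out 0 to 1) and with the replicate number as a block (1 called, difference -1.05, adjusted p = 0.0339). Deviations of 7 same-numbered pairs of arrays correlated at -0.075 to 0.0963. These pairs are not independent, since the 2 129/Sv arrays mirror each other (0.0963 and -0.0963 with B6 array 1). Whether same-numbered arrays share a factor for a part of the genes was not tested. Of 734 member values under alternatives, 45 changed sign, none of them called. Over all probe sets, leaving out single arrays gave 153 to 611 calls between null and B6 (274 with all arrays), 127 to 326 between null and 129/Sv (256), 58 to 292 between null and the mean of the strains (154) and 341 to 863 between B6 and 129/Sv (653). Counts moved by over 1.5 times in the 3 comparisons of the null line without any of the null arrays, in all but null against B6 without 129/Sv array 2, between B6 and 129/Sv without 129/Sv array 1, between null and B6 and between null and the mean without B6 array 1, and between null and the mean without B6 array 3. Without B6 arrays 1 and 2 there were 542, 410 and 386 calls in the first 3 of these comparisons, and with eBayes without trend 154, 166 and 59; the cause was not tested. Setting array medians equal gave 139 higher and 111 lower between null and 129/Sv (177 and 79 with signals as deposited) and 81 and 80 between null and the mean of the strains (95 and 59). For the listed genes, the same alternatives were added after seeing the data, and 6 of their 28 calls were kept under every alternative that tested them. Hsd11b1 and 1 Nr3c1 probe set were too dim to test, and 2 arrays of 129/Sv limit each comparison with that strain.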
